A study of Mus musculus with 6 samples.

Results

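The genes of the proteasome and of its testis-specific alpha subunit Psma8 were examined in whole testes of mice with a conditional deletion of Rnu11, the gene of the U11 small nuclear RNA of the minor spliceosome. Members were all genes whose symbol consists of Psma, Psmb, Psmc, Psmd, Psme, Psmf or Psmg followed by a number and at most 1 further letter, which gave 49 of the 55353 genes of the deposited tables. The rule reads the symbols alone. Whole testes at postnatal day 14 were sequenced from 3 Rnu11 cKO mice, in which Rnu11 was conditionally deleted, and from 3 control mice. The Cre line was not given in the sources used here, nor were the cells in which the deletion took place or the alleles of the controls. Values are in TPM, a unit scaled by transcript length and by the total of each library, so that levels can be set against each other between genes.

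The proteasome degrades proteins that carry a ubiquitin chain. Its core particle is a stack of alpha and beta rings with the proteolytic sites inside, and a regulatory cap of ATPases and non-ATPase subunits binds, unfolds and feeds in the substrates. In mouse spermatocytes the alpha subunit encoded by Psma7 is replaced by Psma8, which is needed for meiosis, and the nuclear activator PA200, encoded by Psme4, takes part in the removal of histones in male germ cells.

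Rnu11 stood at 196, 393 and 203 TPM in the Rnu11 cKO libraries and at 614, 576 and 550.3 TPM in the control libraries. The groups did not overlap, and the log2 difference was -1.21 (SE 0.26, adjusted p = 0.29, limma with Benjamini-Hochberg adjustment over all 17959 genes tested). Between 30113 and 34510 genes had a value above 0 in a library, and no library repeated another. Control 2 stood apart from the other controls in pachytene spermatocyte markers (20 genes). Their summed level was 228, 229 and 273 TPM in Rnu11 cKO libraries and 405, 256 and 398 TPM in control libraries. Piwil1, a defining marker of this stage, had 3.41, 4.78 and 5.98 TPM in Rnu11 cKO testes and 12.4, 2.82 and 13.0 TPM in control testes, and control 2 was the lowest of the 6 libraries. In summed leptotene and zygotene markers control 2 had 373 TPM, above the 260 to 316 TPM of the Rnu11 cKO libraries. Its summed Sertoli markers, 1434 TPM, lay below their 1837 to 2307 TPM. Its summed Leydig markers, 235 TPM, were the highest of the controls, against 246 to 383 TPM in Rnu11 cKO libraries. Of the defining spermatid markers, Prm1 did not exceed 0.345 TPM and Tnp1 did not exceed 0.745 TPM in any of the 6 libraries.

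Of the 49 proteasome genes, 48 averaged 1 TPM or more across the 6 libraries and were tested. The exception was Psmb11, the beta subunit of the thymus proteasome, with 0.022, 0.039 and 0.073 TPM in Rnu11 cKO testes and 0.032, 0.077 and 0.169 TPM in control testes. Together the members made up 0.621% ± 0.019 of all TPM of nuclear protein-coding genes in Rnu11 cKO testes and 0.635% ± 0.013 in control testes (SD, n = 3 each), ranging over 0.599% to 0.634% in Rnu11 cKO testes and 0.621% to 0.645% in control testes. Of the 48 tested, Psma8 had the largest difference between groups on the log2 scale.

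Psma8 (ENSMUSG00000036743, chr18:14706151-14762301, plus strand, GRCm38) had 6.80, 6.55 and 10.1 TPM in Rnu11 cKO testes and 23.5, 8.997 and 17.6 TPM in control testes. The groups overlapped through 1 pair of libraries, since control 2 lay below Rnu11 cKO 3, while control 1 and control 3 lay above all 3 Rnu11 cKO libraries. The means were 7.80 ± 1.95 TPM in Rnu11 cKO testes and 16.7 ± 7.32 TPM in control testes (SD, n = 3 each), so that the Rnu11 cKO mean was 46.6% of the control mean. On the log2(TPM + 1) scale the difference was -0.94 (SE 0.33, unadjusted p = 0.025, adjusted p = 0.29, limma), which did not pass the threshold of 0.05. This was the largest absolute difference among the 48 members tested, and 1.10% of all genes tested had a difference as low or lower. In the authors' deposited table the log2 fold change of Psma8, Rnu11 cKO over control, was -0.78 in the column of confident values and -1.10 in the column of single-run values. Without control 2, the log2 difference was -1.30 with an adjusted p of 0.093 by limma. Since control 2 had the lowest Psma8 value of the controls, leaving it out could only widen the difference. The value of -1.30 was the lowest of the differences with 1 library left out. Without control 1 the difference was the highest of these, -0.66, with an adjusted p of 0.56 by limma.

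Levels of spermatocyte markers leaned the same way, as the plot of Psma8 beside the summed markers shows. Of the 16 pachytene markers tested 15 had a difference below 0, 3 without overlap, with a median of -0.63. Of all 17959 genes tested 6034 had a difference below 0, and 5.77% were lower without overlap. Of the 14 leptotene and zygotene markers 13 were below 0, 11 without overlap, with a median of -0.53 and summed levels of 260 to 316 TPM in Rnu11 cKO testes and 373 to 437 TPM in control testes. None of these markers passed the adjusted threshold in limma. At an unadjusted p under 0.05, 8 pachytene and 11 leptotene and zygotene markers were lower, against 3.98% of all genes tested. Taken as a percentage of the summed pachytene markers, Psma8 was 2.98%, 2.86% and 3.68% in Rnu11 cKO testes and 5.81%, 3.52% and 4.43% in control testes, and again control 2 lay below Rnu11 cKO 3. Against the summed leptotene and zygotene markers it was 2.36%, 2.52% and 3.18% in Rnu11 cKO testes and 5.45%, 2.41% and 4.03% in control testes, where control 2 lay below 2 of the Rnu11 cKO libraries. Spermatogonia markers summed to 384 to 403 TPM in Rnu11 cKO testes and 452 to 483 TPM in control testes, without overlap. The 10 markers did not all go this way, with 7 below 0, 3 above 0 and a median of -0.08. Taken singly, 4 were lower without overlap (against 5.77% of all genes) and 1 was higher (against 14.5%). The part of the cell composition in the Psma8 difference was not tested, and in whole testes fewer cells of a type and less RNA per cell cannot be told apart.

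**Figure D1:**
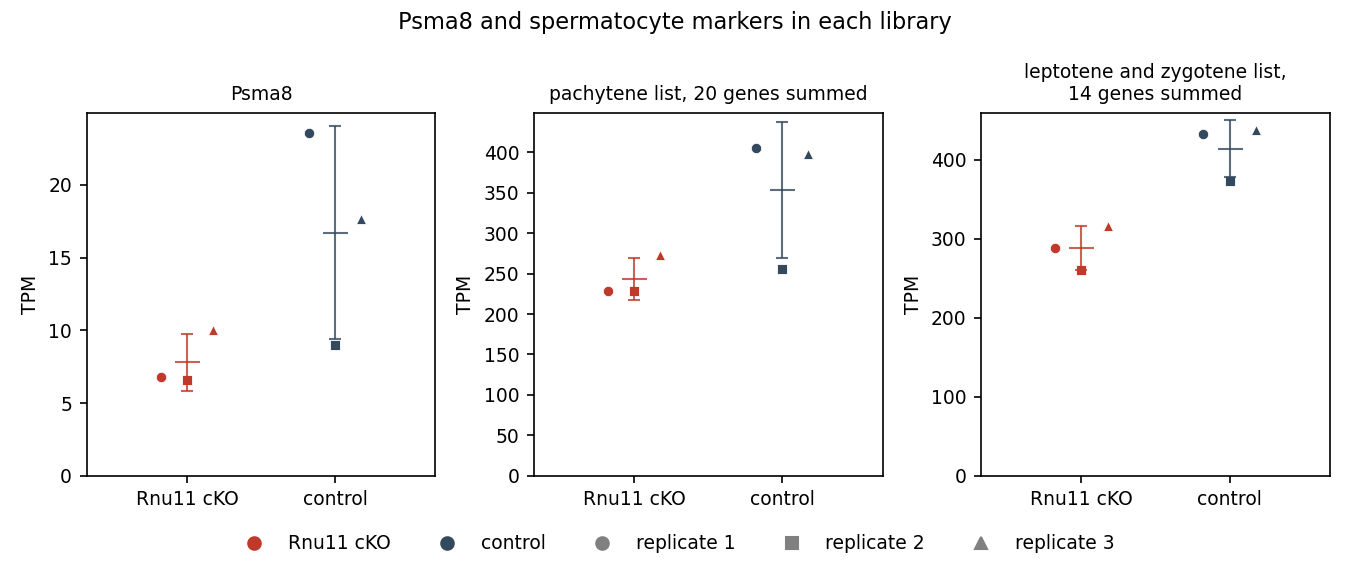
Level in TPM of Psma8, of 20 pachytene markers summed and of 14 leptotene and zygotene markers summed, in 3 Rnu11 cKO and 3 control testes (points, 1 per library, with marker shape for the replicate number; lines, mean and SD). Control 2 had 8.997 TPM of Psma8 and 256 TPM of pachytene markers, the lowest of the control group in these panels.

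The protein-coding isoform accounted for most of the Psma8 signal. Psma8-201, the protein-coding isoform of 7 exons, had 4.07, 4.71 and 7.14 TPM in Rnu11 cKO testes and 16.9, 5.77 and 13.3 TPM in control testes. Control 2 again lay below Rnu11 cKO 3, and the log2 difference was -0.96 (adjusted p = 0.44 over all isoforms tested, limma). Its share of the gene was 67.6% ± 6.66 in Rnu11 cKO testes and 70.4% ± 5.73 in control testes. Psma8-206, annotated as a target of nonsense-mediated decay, took 17.1% ± 6.16 of the gene in Rnu11 cKO testes and 11.3% ± 3.92 in control testes (SD, n = 3 each, adjusted p = 0.86 for the share, limma).

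Psma7 (ENSMUSG00000027566, chr2:180036374-180042433, minus strand), the somatic subunit whose place Psma8 takes, was the most abundant alpha subunit. It had 178, 192 and 161 TPM in Rnu11 cKO testes and 133, 156 and 127 TPM in control testes. All 3 Rnu11 cKO libraries lay above all 3 control libraries, with a log2 difference of 0.35 (SE 0.12, unadjusted p = 0.021, adjusted p = 0.29, limma). After median-ratio scaling of the libraries it was 0.24. The spliced sequences of Psma8-201 and Psma7-201 were identical at 75.0% of 755 aligned bases. Psma8 amounted to 3.83%, 3.41% and 6.23% of Psma7 in Rnu11 cKO testes and to 17.7%, 5.77% and 13.9% in control testes. The groups overlapped only through control 2, which lay below Rnu11 cKO 3. The log2 difference of the ratio was -1.37, and an exact two-sided permutation test gave p = 0.2 (0.25 after Benjamini-Hochberg adjustment over 5 ratios), where 3 against 3 libraries cannot give less than 0.1. With 1 library left out, the log2 difference of the ratio ran from -1.84, without control 2, to -1.04.

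The other 6 alpha ring genes differed by -0.02 to 0.14 on the log2 scale, and none of these 6 was without overlap. With Psma7 the ring summed to 371 ± 31.8 TPM in Rnu11 cKO testes and 325.7 ± 21.9 TPM in control testes (SD, n = 3 each). Levels within the ring were uneven although the subunits are used in equal number, with 9.79 TPM of Psma5 in Rnu11 cKO testes and 9.94 TPM in control testes at the low end. In control testes Psma7 stood 13.9-fold above Psma5.

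**Figure D2:**
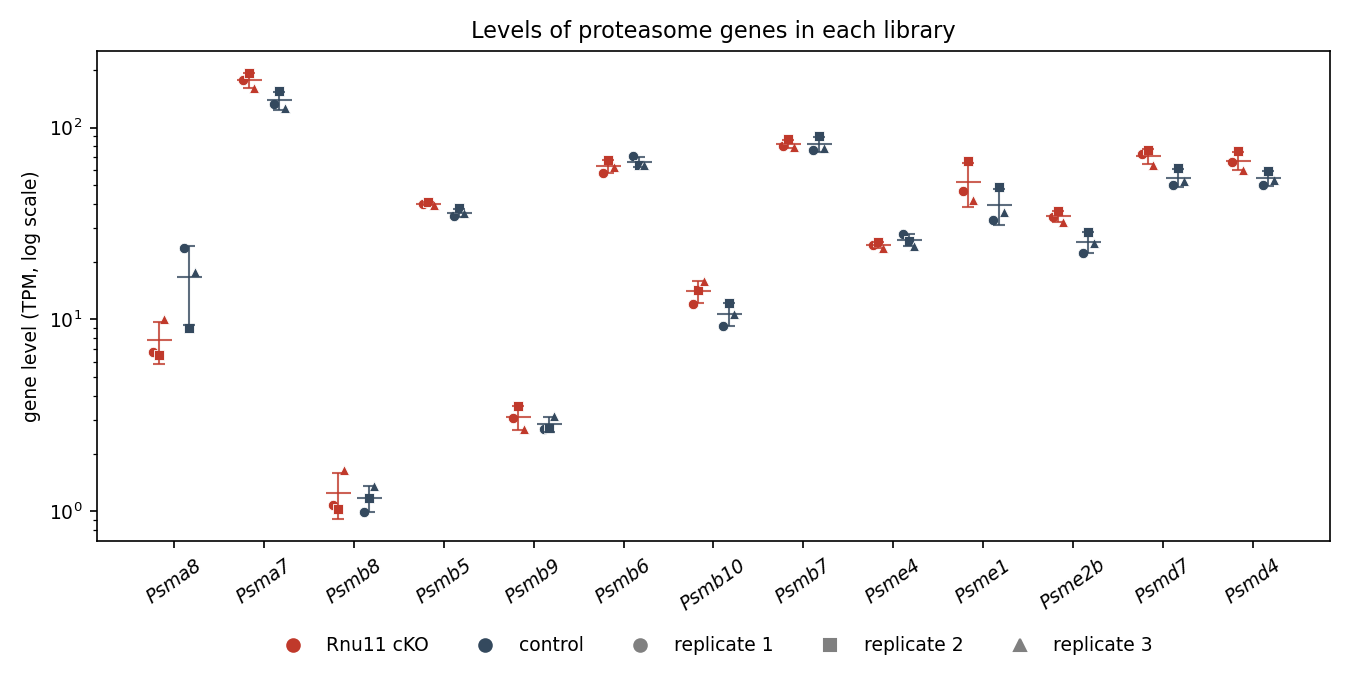
Level in TPM (log axis) of the proteasome genes in 3 Rnu11 cKO and 3 control testes, ordered by role, with 1 point per library. The points of both groups lie close together in most genes, and Psma8 is the tested gene whose group means are set widest apart on the log axis, at 7.80 TPM in Rnu11 cKO testes and 16.7 TPM in control testes.

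Across the proteasome genes, 0 of 48 passed the adjusted threshold in limma, where 0.0278% of all 17959 genes tested did. At an unadjusted p under 0.05, 6 members (12.5%) were higher, against 12.1% of all genes tested, and 1 member, Psma8 (2.08%), was lower, against 3.98%. The 3 Rnu11 cKO values lay above the 3 control values in 7 members (14.6%, against 14.5% of all genes) and below them in 1 member (2.08%, against 5.77%). These shares were near the background or below it. The difference was above 0 in 35 of 48 members (72.9%, against 66.4% of all genes), and its median was 0.07, against 0.09 over all genes tested.

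On the TPM scale the median over all genes was itself above 0. Scaling the libraries by the median ratio of genes moved the median of all genes from 0.09 to -0.003, and that of the members from 0.07 to -0.03. On that scale 20 of 48 members were above 0 (41.7%, against 49.5% of all genes), 5 were higher without overlap (10.4%, against 11.1%) and 8 lower (16.7%, against 11.2%). Without control 2, unscaled, 15 members were higher without overlap (31.2%, against 29.8% of all genes) and 3 lower (6.25%, against 12.3%), and 36 of 48 were above 0 (75.0%, against 66.9%).

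Of the canonical particle, the members hold the 7 alpha and 7 beta ring genes, the 6 ATPases and 11 further cap subunits. Cap subunits with other symbols, such as Sem1, are not counted here. The members of the particle summed to 1490 ± 123 TPM in Rnu11 cKO testes and 1384 ± 62.4 TPM in control testes (SD, n = 3 each). Of these 31 genes 22 had a difference above 0 and 28 lay within 0.2 of 0 on the log2 scale. The median was 0.06, against 0.11 over protein-coding genes, and it turned to -0.046 after median-ratio scaling and to -0.072 after scaling to protein-coding genes. The standard errors ran from 0.079 to 0.153, so differences of the size seen in most subunits were not resolved with 3 libraries a group. The range went from -0.10 for Psmd11 to 0.36 for Psmd7.

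**Figure D3:**
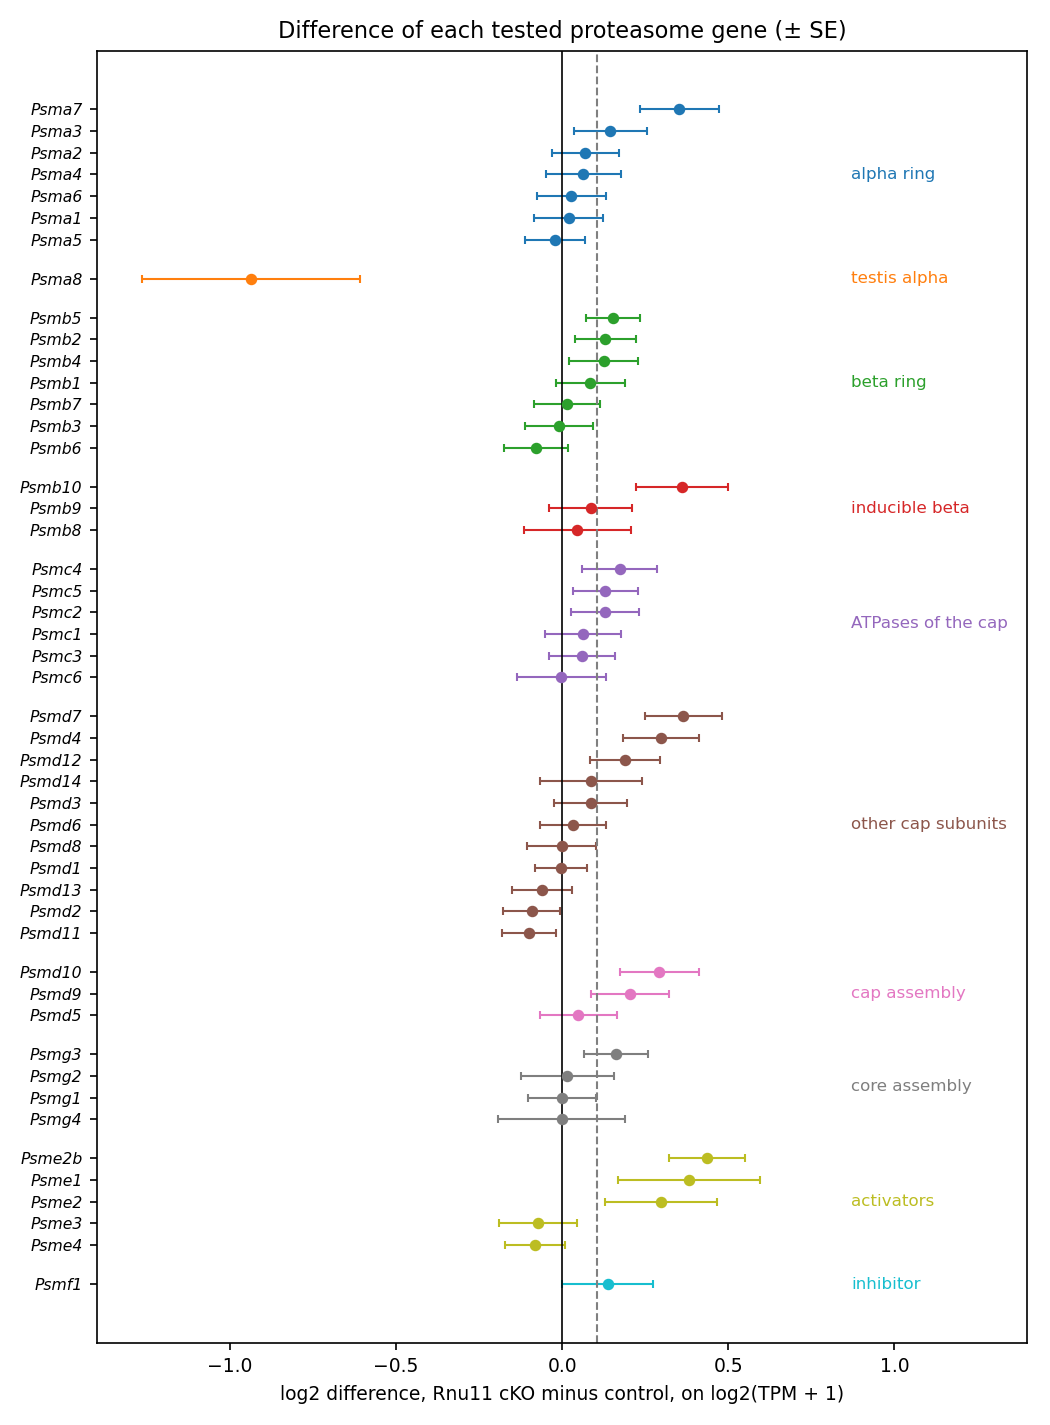
Log2 difference of log2(TPM + 1), Rnu11 cKO minus control, of each of the 48 proteasome genes tested, with its standard error from limma, grouped by role (dashed line, median of protein-coding genes, 0.11). Psma8 at -0.94 lies outside the range of all others, which runs from -0.10 (Psmd11) to 0.44 (Psme2b).

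The beta ring holds the proteolytic sites in Psmb5, Psmb6 and Psmb7, with chymotrypsin-like, caspase-like and trypsin-like activity. The ring summed to 433 ± 30.98 TPM in Rnu11 cKO testes and 416 ± 18.9 TPM in control testes. Psmb5 had 39.8, 41.0 and 39.6 TPM in Rnu11 cKO testes and 34.5, 37.9 and 35.7 TPM in control testes, a log2 difference of 0.15 (SE 0.08, adjusted p = 0.36, limma) without overlap. Psmb2, a beta subunit without a proteolytic site, also did not overlap, at a log2 difference of 0.13. After median-ratio scaling 0 of the 7 beta ring genes were higher without overlap (against 11.1% of all genes) and 1 was lower (against 11.2%). On that scale the log2 difference of Psmb5 was 0.043. Psmb6 had 58.0, 67.7 and 62.5 TPM in Rnu11 cKO testes, against 70.8, 63.9 and 64.1 TPM in control testes, and Rnu11 cKO 2 lay between the control values. Psmb7 had 80.6, 87.1 and 79.3 TPM in Rnu11 cKO testes, against 76.5, 90.2 and 78.5 TPM in control testes, with groups that overlapped widely. The log2 differences were -0.08 for Psmb6 and 0.01 for Psmb7, and after median-ratio scaling -0.19 for Psmb6 and -0.10 for Psmb7.

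Interferon-inducible subunits take the place of these 3 in the immunoproteasome, which is abundant in blood-derived cells. They were scarce in the testes, summing to 18.4 ± 1.98 TPM in Rnu11 cKO testes and 14.7 ± 1.65 TPM in control testes (SD, n = 3 each). Psmb8, the inducible counterpart of Psmb5, had 1.08, 1.03 and 1.64 TPM in Rnu11 cKO testes and 0.99, 1.17 and 1.35 TPM in control testes, with interleaved values. Psmb9, the counterpart of Psmb6, had 3.07, 3.54 and 2.67 TPM in Rnu11 cKO testes and 2.68, 2.71 and 3.15 TPM in control testes, again interleaved. Their log2 differences were 0.04 for Psmb8 and 0.09 for Psmb9, and both were below 0 after scaling to protein-coding genes, at -0.026 for Psmb8 and -0.020 for Psmb9.

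Psmb10, the counterpart of Psmb7, had 12.1, 14.2 and 15.8 TPM in Rnu11 cKO testes and 9.23, 12.2 and 10.7 TPM in control testes. Only Rnu11 cKO 1 and control 2 crossed, and the log2 difference was 0.36 (SE 0.14, adjusted p = 0.30, limma). As a percentage of Psmb7, Psmb10 was 15.0%, 16.3% and 19.99% in Rnu11 cKO testes and 12.1%, 13.6% and 13.6% in control testes, so that these ratios did not overlap. The log2 difference of the ratio was 0.37, with p = 0.1 in the exact permutation test, the smallest it can give, and 0.25 after adjustment over the 5 ratios. Psmb9 was 4.93% ± 0.57 of Psmb6 in Rnu11 cKO testes and 4.31% ± 0.57 in control testes (exact p = 0.2, adjusted 0.25). Psmb8 was 3.12% ± 0.88 of Psmb5 in Rnu11 cKO testes and 3.25% ± 0.48 in control testes (exact p = 0.7, adjusted 0.7).

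Psmb10 is known to be high in macrophages and under interferon signalling. Of 10 macrophage markers 9 had a difference above 0, 2 without overlap (against 66.4% of all genes above 0 and 14.5% higher without overlap), and their summed level was 72.0 to 109 TPM in Rnu11 cKO testes and 57.8 to 91.1 TPM in control testes. Of 12 tested genes of interferon response and antigen presentation 11 had a difference above 0 and 4 were higher without overlap (against the same 66.4% and 14.5% of all genes), with a median of 0.30 and 0 called in limma (3 at an unadjusted p under 0.05, against 12.1% of all genes). Tap1, a peptide transporter of antigen presentation, averaged 3.99 ± 0.81 TPM in Rnu11 cKO testes and 2.72 ± 0.21 TPM in control testes, and Ifitm3, an antiviral membrane protein, 29.7 ± 2.16 TPM in Rnu11 cKO testes and 22.02 ± 1.93 TPM in control testes (SD, n = 3 each). The 1 macrophage marker below 0 was at -0.44, and the 1 gene of the interferon list below 0 was at -0.24. Psmb8 and Psmb9, also interferon-inducible, differed by 0.04 and 0.09. The part of macrophages and of interferon signalling in the Psmb10 values was not tested.

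**Figure D4:**
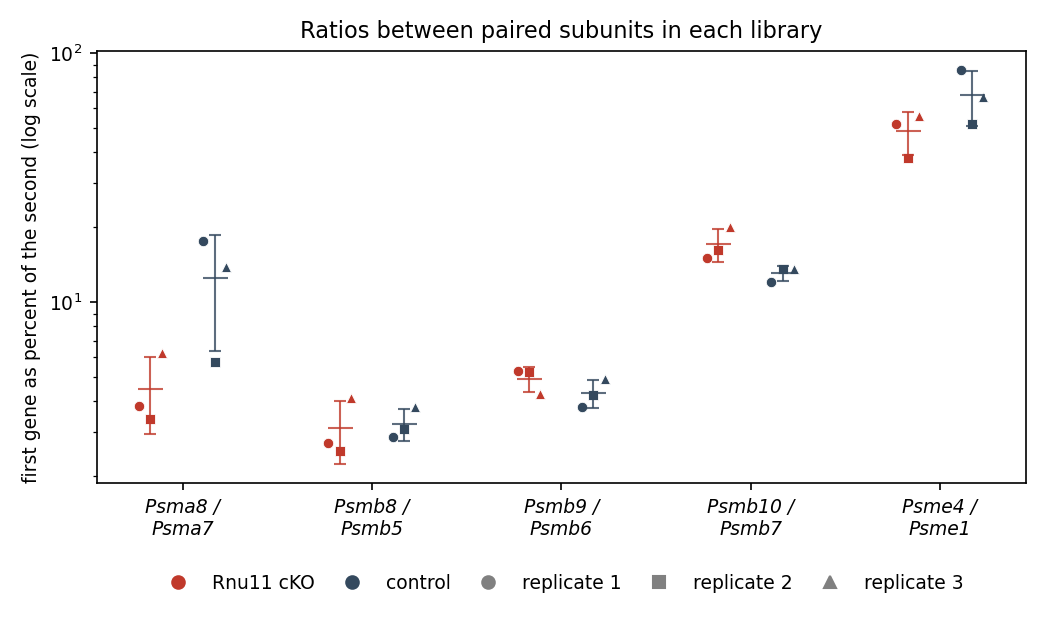
Ratio in percent (log axis) of 5 pairs of proteasome genes in 3 Rnu11 cKO and 3 control testes (points, 1 per library; lines, mean and SD). Psma8 to Psma7 is 4.49% ± 1.53 in Rnu11 cKO testes and 12.5% ± 6.09 in control testes, and of the 5 pairs Psmb10 to Psmb7 alone shows no overlap between the groups.

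In the regulatory cap, the 6 ATPases Psmc1 to Psmc6, which unfold substrates, summed to 202 ± 20.2 TPM in Rnu11 cKO testes and 189 ± 6.05 TPM in control testes. They were close to each other in level, with Psmc2 lowest at 20.9 TPM in Rnu11 cKO testes and 19.0 TPM in control testes and Psmc4 highest at 51.9 TPM in Rnu11 cKO testes and 46.0 TPM in control testes. Their log2 differences ran from -0.002 for Psmc6 to 0.17 for Psmc4, and all 6 overlapped between groups. The 11 other cap subunits among the members summed to 484 ± 40.9 TPM in Rnu11 cKO testes and 453 ± 17.8 TPM in control testes (SD, n = 3 each). Of these, 6 had a difference above 0 and 5 below.

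Psmd7, the partner of the deubiquitinase subunit Psmd14, had 73.0, 76.1 and 63.5 TPM in Rnu11 cKO testes and 50.4, 61.4 and 52.8 TPM in control testes. The groups did not overlap, and the log2 difference was 0.36 (SE 0.12, adjusted p = 0.29, limma). Psmd4, a ubiquitin receptor of the cap, had 66.2, 75.1 and 60.4 TPM in Rnu11 cKO testes and 50.3, 59.7 and 53.4 TPM in control testes. Rnu11 cKO 3 lay just above control 2, so that these groups did not overlap either, at a log2 difference of 0.30 (adjusted p = 0.30, limma). After median-ratio scaling the log2 differences were 0.25 for Psmd7 and 0.19 for Psmd4. On the unscaled values Psmd12, a scaffold subunit of the lid, was the remaining cap gene among the members higher without overlap, at 0.19. Psmd14 itself differed by 0.09 with the largest standard error of the 31 canonical genes, 0.153.

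Psmd11, another scaffold subunit of the lid, had 27.4, 27.0 and 25.2 TPM in Rnu11 cKO testes and 28.4, 29.4 and 27.7 TPM in control testes. On the unscaled values it was the sole member lower without overlap, at a log2 difference of -0.10 (SE 0.08, adjusted p = 0.52, limma). Psmd2, a scaffold of the base, had 57.2, 61.8 and 56.5 TPM in Rnu11 cKO testes and 65.4, 60.5 and 61.4 TPM in control testes, where Rnu11 cKO 2 lay above 2 of the control values. Psmd13, a lid subunit, had 24.1, 23.6 and 20.6 TPM in Rnu11 cKO testes and 23.7, 23.9 and 23.6 TPM in control testes, with groups that overlapped. The log2 differences were -0.09 for Psmd2 and -0.06 for Psmd13. After median-ratio scaling they were -0.20 for Psmd2, -0.17 for Psmd13 and -0.21 for Psmd11. On that scale 4 of the 11 cap subunits other than the ATPases were lower without overlap (against 11.2% of all genes). Another 2 were higher without overlap (against 11.1%).

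Dedicated chaperones help to assemble the base of the cap and the core. The 3 base chaperones Psmd5, Psmd9 and Psmd10 summed to 38.7 ± 1.08 TPM in Rnu11 cKO testes and 34.9 ± 3.24 TPM in control testes, and their log2 differences were 0.05, 0.20 and 0.29. Psmd10, also called gankyrin, had 8.59, 8.48 and 7.59 TPM in Rnu11 cKO testes and 6.35, 7.60 and 5.73 TPM in control testes, where Rnu11 cKO 3 lay just below control 2. The 4 core chaperones Psmg1 to Psmg4 summed to 51.9 ± 3.71 TPM in Rnu11 cKO testes and 50.6 ± 1.19 TPM in control testes (SD, n = 3 each). Of these, Psmg3 had the largest log2 difference, 0.16. Psmf1, an inhibitor of the core in vitro, averaged 20.5 ± 1.09 TPM in Rnu11 cKO testes and 18.7 ± 3.30 TPM in control testes.

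The activators are caps that need no ubiquitin. Psme1, which with Psme2 forms the interferon-inducible cap PA28, had 46.9, 67.2 and 42.2 TPM in Rnu11 cKO testes and 32.8, 49.3 and 36.5 TPM in control testes. Within each group replicate 2 was the highest, the groups overlapped, and the log2 difference was 0.38 (SE 0.21, adjusted p = 0.38, limma). Psme4 had 24.3, 25.5 and 23.6 TPM in Rnu11 cKO testes and 28.0, 25.6 and 24.3 TPM in control testes, and its log2 difference was -0.08 (adjusted p = 0.64, limma), and -0.19 after median-ratio scaling. On the unscaled values Psme4 overlapped between groups, at a level within the range of the cap subunits. As a percentage of Psme1, Psme4 was 51.8%, 37.9% and 55.9% in Rnu11 cKO testes and 85.3%, 51.9% and 66.6% in control testes, where Rnu11 cKO 3 lay above control 2. The log2 difference of this ratio was -0.47, with p = 0.2 in the exact permutation test and 0.25 after adjustment. Psme3, the nuclear member of the PA28 family, differed by -0.07. After median-ratio scaling Psme4 and Psme3 were lower without overlap, 2 of the 5 activator genes (against 11.2% of all genes). On that scale 1 activator gene was higher without overlap (against 11.1%).

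Psme2b, a gene of 1 exon on chromosome 11 (chr11:48945354-48946190, minus strand, GRCm38) that is nearly identical to spliced Psme2, had the smallest p-value of the 48 members. It had 34.4, 36.9 and 32.2 TPM in Rnu11 cKO testes and 22.3, 28.5 and 25.1 TPM in control testes. The groups did not overlap, and the log2 difference was 0.44 (SE 0.11, unadjusted p = 0.007, adjusted p = 0.29, limma). Psme2 itself had 23.1, 30.4 and 19.4 TPM in Rnu11 cKO testes and 17.6, 21.7 and 18.8 TPM in control testes, with overlap, and differed by 0.30. The spliced sequences of the pair were identical at 99.4% of 794 aligned bases, so how reads were divided between Psme2b and Psme2 is uncertain and neither value stands on its own.

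Proteasome genes share an inducible control in which the transcription factor Nfe2l1 binds antioxidant response elements. The letters TGACNNNGC were searched for on both strands of the RefSeq promoter windows (250 bases before to 50 after the start, GRCm38.p6), which were at hand for 41 members in 44 windows. They were found in 6 windows (13.6%), against 13.1% of 20145 windows of protein-coding genes and 12.4% of all 32851 windows, so the share was near the background. The 6 genes were Psmb5, Psmb6, Psmc6, Psmd9, Psmd12 and Psme4, and their log2 differences of 0.15, -0.08, -0.002, 0.20, 0.19 and -0.08 lay on both sides of 0. The 100 bases before the start are shown for the 3 genes whose match lies there on the plus orientation of the gene, with the match in capitals, and for Psma7, the most abundant member, which has no match in its window.
Psmb5 (chr14:54617996-54618095, minus strand): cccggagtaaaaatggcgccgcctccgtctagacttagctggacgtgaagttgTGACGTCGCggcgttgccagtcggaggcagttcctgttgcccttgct
Psmb6 (chr11:70525257-70525356, plus strand): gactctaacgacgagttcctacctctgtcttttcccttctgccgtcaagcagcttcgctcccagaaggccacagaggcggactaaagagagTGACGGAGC
Psmd9 (chr5:123228090-123228189, plus strand): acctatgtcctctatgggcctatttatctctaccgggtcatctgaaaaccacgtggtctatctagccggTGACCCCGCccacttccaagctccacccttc
Psma7 (chr2:180042465-180042564, minus strand): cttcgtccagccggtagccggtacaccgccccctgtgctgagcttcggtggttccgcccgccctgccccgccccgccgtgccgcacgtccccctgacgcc
The match begins 47 bases before the start in Psmb5, 31 in Psmd9 and 9 in Psmb6, and its middle letters, which the motif leaves free, differ among the 3.

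Of 14 tested genes of the pathway that activates proteasome genes, 11 had a difference above 0 (against 66.4% of all genes) and 3 were higher without overlap (against 14.5%). The genes named below are among those above 0, and 3 others lay below 0, down to -0.20. After median-ratio scaling 4 were higher without overlap (against 11.1%) and 1 was lower (against 11.2%). None was called in limma, 4 were higher at an unadjusted p under 0.05 (against 12.1%), and the list had a median of 0.23, or 0.12 once libraries were scaled by the median ratio. Nfe2l1 averaged 126 ± 16.2 TPM in Rnu11 cKO testes and 108 ± 7.91 TPM in control testes, and Ddi2, the protease that releases its active form, 22.7 ± 1.47 TPM in Rnu11 cKO testes and 19.2 ± 2.79 TPM in control testes. Nfe2l2, the related factor of the oxidative stress response, averaged 47.5 ± 6.78 TPM in Rnu11 cKO testes and 35.1 ± 6.51 TPM in control testes (log2 difference 0.43, adjusted p = 0.30, limma). Sqstm1, an autophagy receptor and target of Nfe2l2, averaged 157 ± 13.1 TPM in Rnu11 cKO testes and 124 ± 13.8 TPM in control testes, and its values did not overlap. Mafk, a partner of both factors, differed by 0.29, also without overlap.

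Of 24 tested partners of the proteasome, such as ubiquitin genes, shuttle factors and associated enzymes, 22 had a difference above 0 (against 66.4% of all genes) and 3 were higher without overlap (against 14.5%). None was called in limma, and 3 were higher at an unadjusted p under 0.05 (against 12.1%), so that these last shares were near the background. The median was 0.12, and after median-ratio scaling 14 were above 0 with a median of 0.01, and after scaling to protein-coding genes 11 were, with a median of -0.02. Sem1, a small subunit of the cap whose symbol lies outside the family, averaged 20.2 ± 0.41 TPM in Rnu11 cKO testes and 16.3 ± 1.22 TPM in control testes. Ubb, a polyubiquitin gene, averaged 498 ± 68.0 TPM in Rnu11 cKO testes and 380 ± 47.0 TPM in control testes, and Ubqln2, a shuttle factor, 23.4 ± 3.36 TPM in Rnu11 cKO testes and 17.9 ± 2.09 TPM in control testes (SD, n = 3 each). These 3, named for the smallest p-values of the list, were those without overlap, and none passed the adjusted threshold. The 2 partners below 0 were Uchl5, a deubiquitinase of the cap, at -0.19 and Akirin2, a factor of the nuclear import of proteasomes, at -0.03, both with overlap.

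Sertoli and Leydig cells, which support and instruct the germ cells, also express the proteasome. Sertoli markers summed to 1837 to 2307 TPM in Rnu11 cKO testes and 1290 to 1434 TPM in control testes, with 9 of 10 above 0 and 5 without overlap (against 66.4% and 14.5% of all genes). Leydig markers summed to 246 to 383 TPM in Rnu11 cKO testes and 124 to 235 TPM in control testes, with 7 of 7 above 0 and 4 without overlap (against the same shares). The part of these cells in the proteasome values was not tested.

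Since the deleted RNA recognises the start of minor introns, the members' isoforms were examined. Of 537 annotated introns of the members 68 could be read from the given sequences, and 0 of these had the sequence of a minor intron, against 54 of 14627 readable introns of all protein-coding genes. Minor introns were so rare among readable introns that 0 of 68 cannot set the members apart from other genes. The other introns of the members were not read. In 161 isoforms of 47 members tested for their level, 0 were called, where 0.0136% of all 44197 isoforms were. At an unadjusted p under 0.05, 9 were higher (5.59%, against 8.06%) and 5 lower (3.11%, against 3.18%), and without overlap 12 were higher (7.45%, against 11.6%) and 3 lower (1.86%, against 5.17%).

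The isoform with the smallest p-value belonged to the ATPase gene Psmc3 (ENSMUSG00000002102, chr2:91054009-91066369, plus strand, GRCm38). Psmc3-210, a protein-coding isoform annotated without an end to its reading frame, had 6.34, 8.56 and 7.32 TPM in Rnu11 cKO testes and 2.69, 3.68 and 4.01 TPM in control testes. The groups did not overlap, and the log2 difference was 0.92 (SE 0.16, unadjusted p = 8.3e-04, adjusted p = 0.32, limma). The gene as a whole differed by 0.06. Psmc3-210 runs over 9 exons and 944 bases, and all 8 of its introns are also introns of Psmc3-202, the main isoform of 12 exons and 1636 bases, so it is set apart by its ends. How reads were divided between Psmc3-210 and Psmc3-202 is therefore uncertain, and so are the levels and shares of both.

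Of the Psmc3 transcripts, Psmc3-210 made up 17.4%, 20.5% and 18.7% in Rnu11 cKO testes and 6.88%, 10.8% and 10.2% in control testes. Psmc3-202 made up 65.5%, 64.1% and 65.8% in Rnu11 cKO testes and 73.4%, 74.0% and 77.0% in control testes. Neither share overlapped between groups, in opposite directions, and shares of the same gene are not independent. The log2 differences of the share were 1.18 (SE 0.23, adjusted p = 0.70, limma) for Psmc3-210 and -0.67 (adjusted p = 0.80, limma) for Psmc3-202. Over the 121 shares tested in 41 members, 0 were called, where 0.0112% of all 35638 shares were, and 1 was higher and 1 lower at an unadjusted p under 0.05 (0.826% each, against 2.77% higher and 3.01% lower). Without overlap 4 were higher (3.31%, against 5.73%) and 5 lower (4.13%, against 6.04%). Psmc6-203 had the next smallest p-value, with a share of 22.4% ± 3.69 in Rnu11 cKO testes and 16.2% ± 3.39 in control testes (adjusted p = 0.86, limma).

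**Figure D5:**
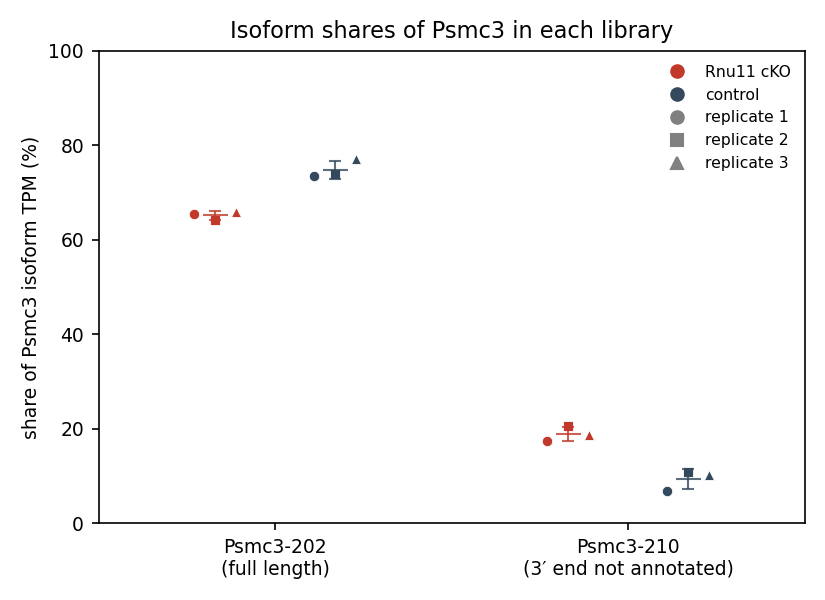
Share in percent of the Psmc3 isoforms Psmc3-210 and Psmc3-202 in 3 Rnu11 cKO and 3 control testes (points, 1 per library; lines, mean and SD). Psmc3-210 is at 18.8% ± 1.55 in Rnu11 cKO testes and 9.27% ± 2.10 in control testes, and Psmc3-202 at 65.1% ± 0.90 in Rnu11 cKO testes and 74.8% ± 1.93 in control testes.

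After Psmc3-210, the isoforms with the smallest p-values were Psmd4-201 and Psma7-207. Psmd4-201, protein coding, had a mean of 14.2 ± 0.72 TPM in Rnu11 cKO testes and 10.3 ± 0.72 TPM in control testes, without overlap (log2 difference 0.44, adjusted p = 0.43, limma). Psma7-207, annotated as a processed transcript without a reading frame, had a mean of 41.1 ± 2.48 TPM in Rnu11 cKO testes and 28.5 ± 3.68 TPM in control testes, also without overlap (log2 difference 0.52, adjusted p = 0.43, limma). The genes of both isoforms, Psmd4 and Psma7, were themselves higher without overlap, at log2 differences of 0.30 and 0.35.

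Isoforms not annotated as protein coding, which include those that keep an intron, were compared with the coding isoforms of the same gene in 39 members. In this ratio 0 members were called, where 0.0135% of all 7434 genes were, and 0 passed an unadjusted p under 0.05 in limma, against 2.99% of all genes higher and 3.71% lower. The difference was above 0 in 19 members and below 0 in 20. Psmc1 had the largest log2 difference of the ratio, 0.82, with overlap (adjusted p = 0.77, limma). Its noncoding isoforms were at 16.5% ± 7.60 of the gene in Rnu11 cKO testes and 9.48% ± 1.99 in control testes. Psmd6, a lid subunit, was the only member higher without overlap (1 of 39, 2.56%, against 5.02% of all genes). Its noncoding isoforms were at 34.3% ± 1.26 of the gene in Rnu11 cKO testes and 31.5% ± 0.70 in control testes (adjusted p = 0.82, limma). Psmg3, a core chaperone, was the only member lower without overlap (2.56%, against 7.47%), at 11.97% ± 1.20 in Rnu11 cKO testes and 14.9% ± 1.36 in control testes (SD, n = 3 each, adjusted p = 0.77, limma). In Psma8 the noncoding isoforms made up 32.4% ± 6.66 in Rnu11 cKO testes and 29.5% ± 5.76 in control testes (adjusted p = 0.90, limma).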

How the data were processed

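RNA of 6 whole testes, 3 Rnu11 cKO and 3 control, was sequenced as stranded total RNA libraries after rRNA depletion, per the labels' protocols. Per the submitters' processing notes, HISAT2 aligned the reads to GRCm38. The quantification tool was not given in the sources used here, nor was its annotation. Gene and isoform TPM were deposited by the authors for each library, without counts, so the depth is unknown and no counting interval is given. Log2 fold changes of the authors' deposited table were used for description alone. Groups came from the genotype in the labels, and nothing pairs the animals.

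In R 4.3.3, limma 3.58.1 (lmFit, then eBayes with a trend) was run two-sided on log2(TPM + 1) of genes and of isoforms that averaged 1 TPM or more. P-values were adjusted by Benjamini-Hochberg over all features tested, at a threshold of 0.05. Such differences understate changes of low genes. Isoform shares and noncoding to coding ratios were tested without trend as log2 ratios with 0.1 TPM added to each side, for genes of at least 5 TPM. Of the shares, isoforms with 5% to 95% of their gene entered. Of the ratios, both kinds needed at least 0.5 TPM. The limma fits were also tested on simulated data, but no outcome is given here, so their error rates with 3 libraries a group are not shown. Exact permutation tests were used for 5 ratios of genes.

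Isoform classes, introns and coordinates came from GENCODE M21, and promoters from RefSeq. Per-library values are given for Psma8, Psma7, the inducible beta subunits and their counterparts, Psme1, Psme4, and the 3 higher and 3 lower further members with the smallest p-values. Of isoforms, shares and each list, up to 3 genes with the smallest p-values are named. Per-library values of Psmd10, Psme2 and Psmb11, the isoforms of Psma8, the promoters shown, Nfe2l1, Ddi2, Uchl5 and Akirin2 were chosen after their values were seen. The members and the gene lists were chosen with earlier results of these data known. Alternatives were the scaling, the pseudocount, the filter, a replicate block and leaving out each library.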

Additional observations from a re-analysis of the deposited data

How the results depend on the processing

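No proteasome gene, isoform, share, noncoding ratio, partner or activation gene was called under any of the alternatives tried: the 5 counts stayed at 0 in all 54 values. Psma8 kept its sign, with log2 differences of -1.30 when control 2 was left out, the lowest, and -0.66 when control 1 was, the highest, and adjusted p-values from 0.093 to 0.62 in limma. The median over the canonical genes moved to -0.046 after median-ratio scaling and to -0.072 after scaling to protein-coding genes, where protein-coding genes had medians of 0.01 and -0.02. Leaving out 1 library gave medians from -0.01 to 0.10. Why the share of protein-coding genes in all TPM differed between libraries was not tested.

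Of 15 named members with 193 values under alternatives, 182 kept direction and side of the threshold and 11 turned in sign, all in genes whose difference was near 0. Psmb8 turned to -0.011 after median-ratio scaling, -0.026 after protein-coding scaling, -0.074 without Rnu11 cKO replicate 3 and -0.017 without control replicate 1, and ranged up to 0.11 with 1 library left out. Psmb9 turned to -0.020 after protein-coding scaling. Psmb7 turned to -0.10 after median-ratio scaling, -0.13 after protein-coding scaling, -0.027 without Rnu11 cKO replicate 2, -0.032 without control replicate 1 and -0.014 without control replicate 3, and ranged up to 0.086. Psmd13 turned to 0.0061 without Rnu11 cKO replicate 3. The Psmb8 to Psmb5 ratio ranged from -0.29 to 0.042 when 1 library was left out, at 0.042 without Rnu11 cKO replicate 2 and 0.020 without control replicate 3. Leaving out 1 library gave log2 differences of -1.84 to -1.04 for Psma8 to Psma7, 0.10 to 0.29 for Psmb9 to Psmb6, 0.25 to 0.46 for Psmb10 to Psmb7 and -0.65 to -0.30 for Psme4 to Psme1. After scaling to protein-coding genes the log2 differences were 0.21 for Psma7, 0.016 for Psmb5, -0.22 for Psmb6, 0.23 for Psmb10, 0.16 for Psmd4, 0.23 for Psmd7, -0.24 for Psmd11, -0.23 for Psmd2, -0.20 for Psmd13, 0.24 for Psme1 and -0.22 for Psme4, each over 1.5 times away from its unscaled value. The counts without control replicate 2 were chosen after seeing the data.

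Libraries with the same number did not deviate together (correlations of -0.07, 0.03 and 0.08), and of the 3 numbers only number 2 matched its own best, so the numbers were not taken as pairs. With the replicate number as a block, 0 genes, 0 isoforms, 0 shares and 0 noncoding ratios of the members were called, and Psma8 had a log2 difference of -0.94 with an adjusted p of 0.20 in limma. Without counts the depth behind low members such as Psmb11, Psmb8 and Psmb9 is unknown, which limits what their values can resolve.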
